A study of Mus musculus with 3 samples.

Results

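The genes described here encode the machinery that brings newly made proteins into the endoplasmic reticulum (ER) and carries them on to the Golgi. They were taken by name: the subunits of the signal recognition particle and its receptor, the Sec61 translocon with its partners, the signal peptidase, the COPII and COPI vesicle coats, cargo receptors of the Tmed and Lman families with Surf4 and Mia3, and the KDEL receptors. The name pattern found 70 genes among 19938 genes measured by a probe set with 1 gene symbol. Of these 70, 6 share the pattern but not the function: Sec14l1 to Sec14l5, which encode lipid-binding proteins, and Sec1, a fucosyltransferase gene. Sec61g and Srp54 share their probe sets with other symbols, which left out 6 probe sets, and Kdelr2 and Tmed1 are not analysed here.

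Proteins with a signal peptide are met at the ribosome by the signal recognition particle, which docks on its receptor in the ER membrane. The chain then passes through the Sec61 channel, and the signal peptidase removes the signal. Folded cargo leaves the ER in COPII vesicles, with the help of cargo receptors, and COPI vesicles bring receptors and escaped ER proteins back. Marrow stroma uses this route for all of its secreted products, from chemokines to collagens.

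The series compares sorted marrow stromal populations in a study of where the CXCL12 that maintains hematopoietic stem cells is made. It holds 3 Affymetrix arrays, all at baseline and from marrow of tibia, femur and pelvis. CXCL12-abundant reticular (CAR) cells came from 2 Cxcl12-GFP knock-in mice, 1 array each. The other array holds cells sorted as PDGFRa+ Sca+ CD45- lineage- (called PaS), combined from 3 mice with Prx1-Cre, which is active in limb mesenchyme, a Rosa26Ai9/+ reporter and Cxcl12gfp/+. Both groups therefore carry a Cxcl12-GFP allele, genotype and cell type differ together, and the pooled array has no replicate.

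Markers of the sorts set a limit on every direction given here. Cxcl12 was higher in CAR cells (log2 difference 3.27, limma adjusted p = 0.0114), but Pdgfra, used to gate the PaS cells, was also higher there (3.42, adjusted p = 0.0119), and Ptprc, which encodes the gated-out CD45, was lower (-3.21, adjusted p = 0.0114). The other PaS and fibroblast markers ran the way of the label. Of 7 measured, 4 were higher on the PaS array: Dpt 50.7-fold, Thy1 16.6-fold, Cd34 5.10-fold and Mfap5 3.11-fold. These 4 read under the array median on both CAR arrays, so the sizes of their folds are uncertain. Pdgfra was the 1 called higher in CAR cells. Because Pdgfra and Ptprc, both used in the gate, ran against it, the array is called "the array labelled PaS". Of 15 general blood cell markers, 12 were lower in CAR cells and none was listed at 0. Their summed intensity was 775.6 and 1048 on the CAR arrays against 4363 on the array labelled PaS, and that of 10 neutrophil markers was 3205 and 2942 against 16881. Among 11 markers of plasma and B cells, which are blood cells with much secretory machinery, 3 were lower and 1 higher, with sums of 174.1 and 174.8 against 365.6. Of 8 endothelial markers 3 were lower (93.0 and 76.4 against 267.8). Markers of osteoblasts, which are secretory stromal cells, ran the other way, with 3 of 6 higher and 0 lower (2387 and 3469 against 313.7). Ibsp was 22.7-fold higher, while Col1a1 read lower without passing (-0.82, adjusted p = 0.126). The part of these other cells in the results was not tested. In bulk samples the number of cells of a type and their RNA per cell cannot be told apart.

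The translocation and transport genes leaned toward CAR cells. By limma, with p adjusted over all genes and a threshold of 0.05, CAR cells had 20 of the 70 genes higher and 1 lower, where 8.56% and 6.42% of all genes were called in these directions. That is 28.6% of the genes higher and 1.43% lower. The median log2 difference over the 70 was 0.84, against -0.10 over all genes. Both CAR arrays lay above the array labelled PaS for 48 genes (37.4% of all genes did so) and below it for 18 (46.8%). Both were at least 2-fold above it for 27 genes (10.9% of all genes) and at least 2-fold below it for 1 (8.92%). After quantile normalization these counts were 14 (9.28% of all genes) and 4 (9.03%). The called increases were moderate, from 2.43-fold for Srp9 to 6.03-fold for Sec11a.

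**Figure D1:**
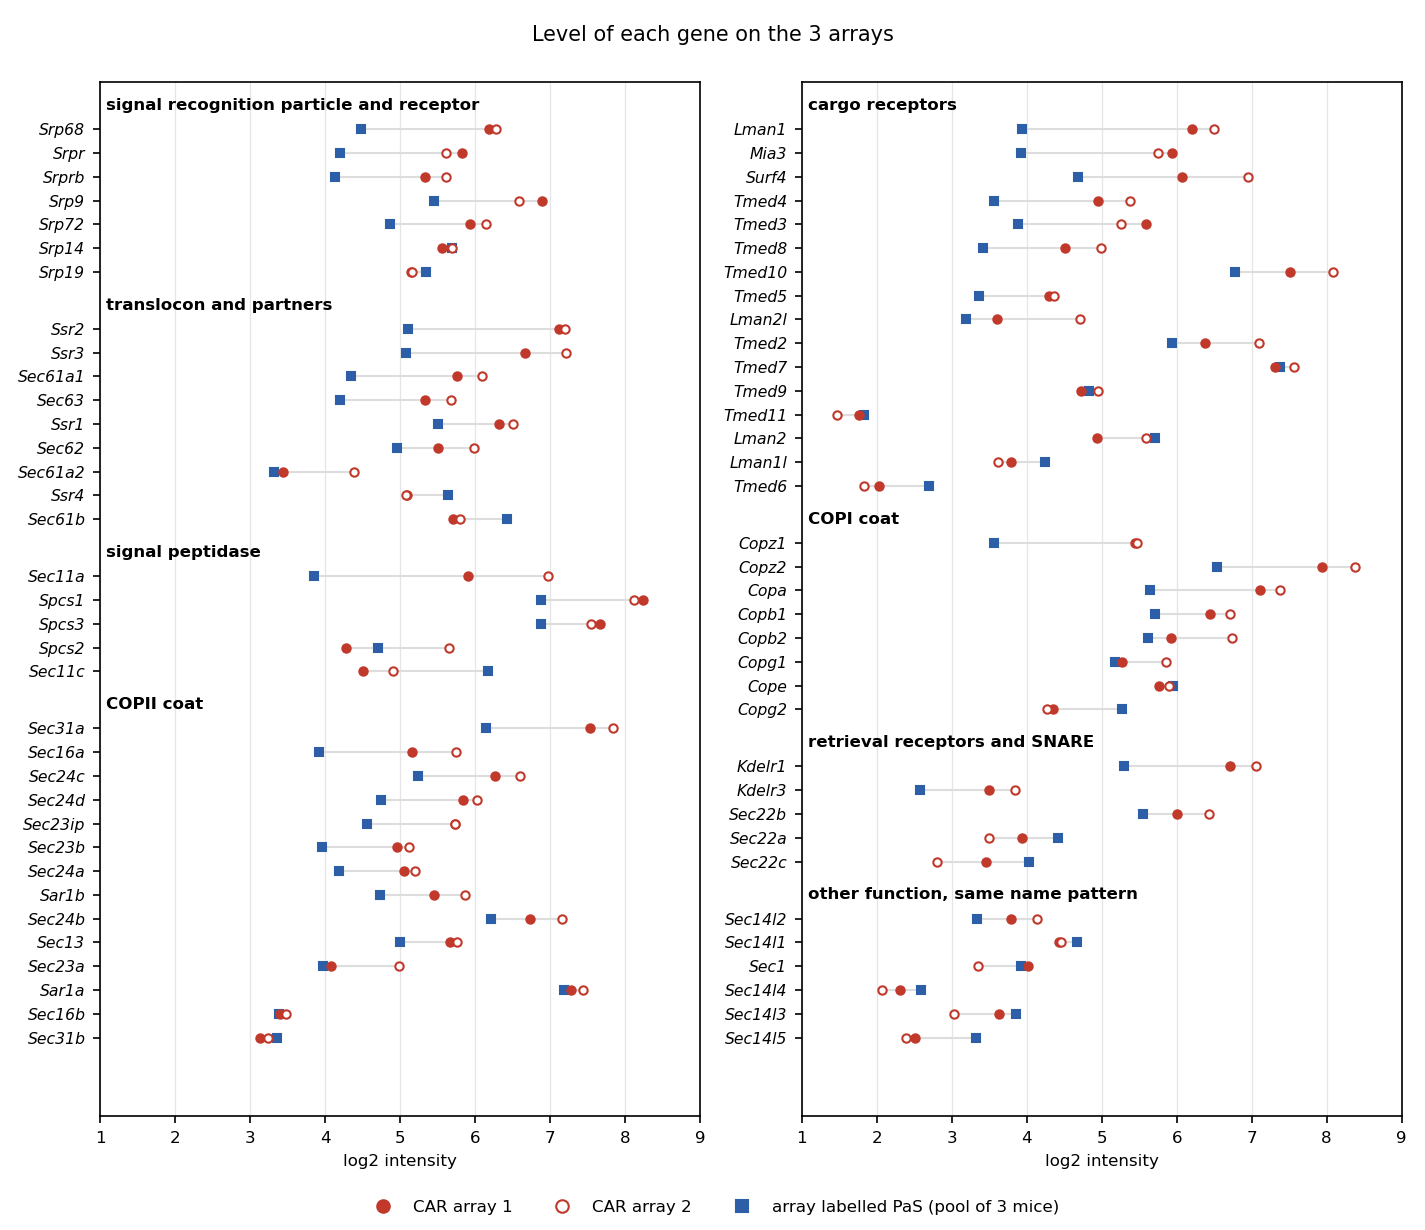
Level of each of the 70 genes as log2 intensity (x axis) on CAR array 1 (filled circles), CAR array 2 (open circles) and the array labelled PaS (squares), ordered by difference within each role. Most squares lie to the left of both circles, with Sec11c, Copg2, Sec61b and Ssr4 among the exceptions; levels of different genes come from different probes and are not comparable.

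The lean moved with the brightness of the genes. The interquartile range of log2 intensity over all genes was 1.96 and 2.28 on the CAR arrays and 1.35 on the array labelled PaS. Bright genes tended to read higher in CAR cells and dim genes lower. The level is the mean of the same 3 arrays, 2 CAR and 1 PaS, so it is not independent of the difference. The median difference of all genes went from -0.67 in the lowest decile of mean level to 0.73 in the highest. Of the 70 genes, 48 lay in the upper quartile by mean level. When limma was fitted on that quartile alone, 24 of these 48 were called higher and 1 lower, where 35.5% and 5.86% of its 4985 genes were called. Because CAR cells weigh more in the level, genes high there enter the quartile more easily. The filter is thus tied to the difference, for the 70 genes and for all genes, and cannot separate level from cell type. Among the 22 genes below the quartile the median difference was -0.20, but 0.22 after quantile normalization, so its sign depends on the scaling. In the fit over all genes 1 of the 22, Tmed4, was called higher.

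Quantile normalization, which gives the 3 arrays 1 common distribution, kept the lean and lowered its size. It gave 23 genes higher and 5 lower, against 13.2% and 14.2% of all genes, and a median difference of 0.39, against -0.02 over all genes. Of the 21 genes called on the deposited values, 19 were called in the same direction after it. Spcs1 and Srp9 lost their calls (adjusted p = 0.116 and 0.141). The genes that were lower were Sec11c, Copg2, Sec61b, Ssr4 and Lman2.

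Other settings of the fit, except the last given here, also had a larger share of the 70 genes higher, and a smaller share lower, than of all genes. Centring each array on its median gave 28 genes higher and 1 lower (12.3% and 9.59% of all genes), and a robust prior gave 27 and 1 (10.9% and 8.92%). Genes at or above the median level, a filter also tied to the difference, gave 26 of 58 higher and 1 lower (20.7% and 5.12%). The mean of all probe sets gave 19 and 1 (8.35% and 6.22%), and a prior that follows the level gave 15 and 1 (8.09% and 8.78%). With 16 added to every intensity before the log, limma called 0 of the 70 genes and 0 of all genes. Its unadjusted p was then under 0.05 for 38 of the 70, against 5785 of all 19938 genes, in either direction.

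**Figure D2:**
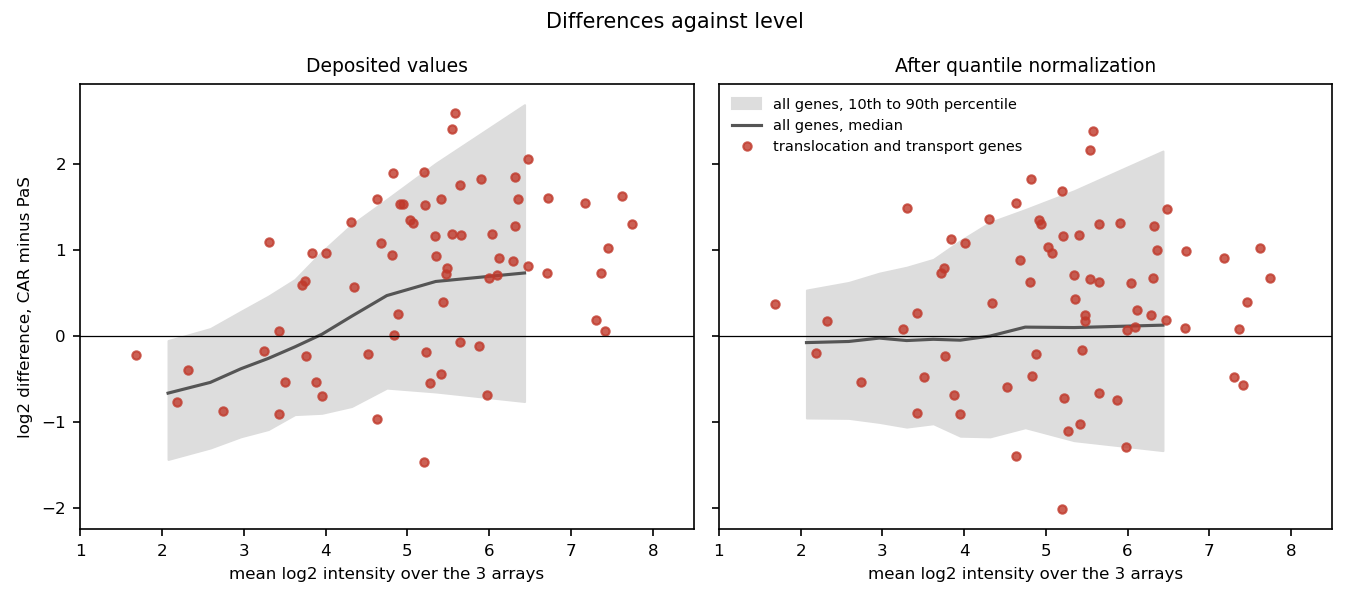
Log2 difference CAR minus PaS (y axis) against the mean log2 intensity over the 3 arrays (x axis), for the deposited values (left) and after quantile normalization (right); points are the 70 genes, the line is the median of all genes by decile of level and the band runs from their 10th to their 90th percentile. On the left the line climbs from -0.67 to 0.73, and on the right it stays between -0.08 and 0.12. The mean on the x axis holds 2 CAR arrays and 1 PaS array and is not independent of the difference.

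At the targeting step some subunits were called and others lay near no difference. The signal recognition particle binds signal peptides, and its receptor is a pair of membrane-linked GTPases; 4 of 7 genes were higher in CAR cells. Srp68, a scaffold subunit, read 6.18 and 6.28 (log2 intensity) in the CAR cells against 4.48 for the array labelled PaS, so it was 3.37-fold higher (1.75 ± 0.28 on the log2 scale, SE from limma; adjusted p = 0.0257). Values are given in this order from here on, each difference as CAR minus PaS with its SE. Srp72, the partner that Srp68 binds, read 5.93 and 6.15 against 4.87 without reaching the threshold (1.17, adjusted p = 0.0548). Both subunits of the receptor were higher. Srpr, the alpha subunit, read 5.83 and 5.61 against 4.20 (1.52 ± 0.29, adjusted p = 0.0346), and Srprb, the beta subunit, 5.34 and 5.62 against 4.13 (1.34 ± 0.30, adjusted p = 0.0448). The call of Srprb was lost with a prior that follows the level (adjusted p = 0.0508).

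Srp9 and Srp14 form the pair that slows translation while the ribosome docks, and they read differently. Srp9 stood at 6.89 and 6.59 against 5.46 (1.28 ± 0.30, adjusted p = 0.0495). This value rests on 1 probe set: the second one for Srp9 gave a difference of 0.17, and the mean of both gave 0.73 (adjusted p = 0.134). The prior that follows the level also ended the call (adjusted p = 0.0630). Srp14 read 5.55 and 5.69 against 5.69, a difference of -0.07 with a 95% interval from -0.79 to 0.65. Srp19, which helps assemble the particle, read 5.15 and 5.17 against 5.35 (interval of the difference -0.90 to 0.52).

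At the translocon, 4 of 9 genes were higher. Sec61a1, the pore subunit, stood at 5.77 and 6.10 against 4.35 (1.59 ± 0.31, adjusted p = 0.0351). Its paralog Sec61a2 read 3.43 and 4.39 against 3.32 (0.59, interval -0.57 to 1.75), with the CAR arrays further from each other than the first was from the array labelled PaS. Sec63, a membrane J-domain protein that works with the channel and the chaperone BiP, read 5.34 and 5.68 against 4.20 (1.31 ± 0.31, adjusted p = 0.0496), and lost its call with the prior that follows the level (adjusted p = 0.0566). Sec62, its partner, gave 5.51 and 5.98 against 4.96, not past the threshold (adjusted p = 0.163).

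Sec61b, a small channel subunit, ran the other way on its brightest probe set, at 5.70 and 5.80 against 6.43 (-0.68, adjusted p = 0.154). Its other probe sets gave differences of 0.32 and 0.11, so the direction depends on the probe set. The TRAP complex, which sits beside the channel and assists some signal peptides, has 4 subunits encoded by Ssr1 to Ssr4, and 2 of them were called. Ssr2 stood at 7.13 and 7.20 against 5.11, 4.16-fold (2.06 ± 0.28, adjusted p = 0.0198), and Ssr3 at 6.66 and 7.21 against 5.08, 3.61-fold (1.85 ± 0.35, adjusted p = 0.0335). Ssr1 read 6.32 and 6.51 against 5.51 (0.90, adjusted p = 0.0921). Ssr4 read lower on both CAR arrays, 5.09 and 5.08 against 5.64 (-0.55, interval -1.26 to 0.15), and passed as lower only after quantile normalization among the scalings tried (-1.10, adjusted p = 0.0205). The difference between subunits was not tested.

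The signal peptidase held the largest increase and the only called decrease among the 70 genes. Its catalytic subunit is encoded by either Sec11a or Sec11c, and the assembled enzyme contains one of them. Sec11a stood at 5.91 and 6.98 on the CAR arrays and at 3.85 on the array labelled PaS, 6.03-fold higher (2.59 ± 0.49, interval 1.34 to 3.84, adjusted p = 0.0341). Sec11c stood at 4.51 and 4.91 against 6.18, 2.76-fold lower (-1.47 ± 0.32, interval -2.27 to -0.66, adjusted p = 0.0429). For Sec11a both CAR arrays lay above the array labelled PaS, as for 37.4% of all genes. For Sec11c both lay below it, as for 46.8% of all genes. The 2 genes kept direction and call after quantile normalization (2.38 and -2.01, adjusted p = 0.00439 and 0.00258). The difference between the paralogs themselves was not tested, and the CAR arrays were 1.07 apart for Sec11a.

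The accessory subunits of the peptidase were less far apart. Spcs1 read 8.25 and 8.12 against 6.88 (1.30 ± 0.28, adjusted p = 0.0429) and Spcs3 7.67 and 7.55 against 6.88 (0.73, adjusted p = 0.137). The call of Spcs1 was also lost with the prior that follows the level (adjusted p = 0.0526). For Spcs2 the array labelled PaS, at 4.71, lay between the CAR arrays at 4.28 and 5.66.

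The COPII coat, which buds vesicles from the ER, had 2 called genes among 14, both higher. Both CAR arrays lay above the array labelled PaS for 13 of the 14, against 37.4% of all genes. This count was not adjusted for the level of the genes. The called genes were Sec31a, the main outer coat subunit, at 7.54 and 7.84 against 6.14 (1.55 ± 0.30, 2.93-fold, adjusted p = 0.0355), and Sec16a, the scaffold of exit sites, at 5.16 and 5.74 against 3.93 (1.53 ± 0.35, 2.88-fold, adjusted p = 0.0485). With the prior that follows the level Sec16a missed the threshold (adjusted p = 0.0505). Their paralogs Sec31b and Sec16b differed little. Sec31b read 3.13 and 3.25 against 3.36 and Sec16b 3.40 and 3.49 against 3.39, below the array medians of 3.74, 3.75 and 3.77. Such dim values cannot be told from background, because no detection calls were used. The called genes Copz1 and Tmed4, given below, also read under the median on the array labelled PaS, so the sizes of their folds are uncertain.

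Sec23 and Sec24 form the inner coat, and Sec24 selects cargo. Sec23b read 4.96 and 5.13 against 3.96 (1.08, adjusted p = 0.0622) and Sec23a 4.08 and 4.99 against 3.97 (0.56, adjusted p = 0.416). The 4 Sec24 paralogs all read higher on both CAR arrays, and none passed. Sec24c gave 6.27 and 6.59 against 5.25 (1.19, adjusted p = 0.0589), Sec24d 5.84 and 6.02 against 4.75 (1.18, adjusted p = 0.0527), Sec24a 5.05 and 5.20 against 4.19 (0.94) and Sec24b 6.74 and 7.16 against 6.21 (0.73). Sec24c and Sec24d passed when each array was centred on its median (adjusted p = 0.0330 and 0.0301) but not after quantile normalization (0.118 and 0.0935).

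The GTPase that starts the coat is encoded by Sar1a and Sar1b. Sar1a read 7.29 and 7.44 against 7.19 (0.18, interval -0.54 to 0.90) and Sar1b 5.46 and 5.87 against 4.73 (0.93, interval 0.12 to 1.74, adjusted p = 0.107). Sec13, which pairs with Sec31 in the outer coat, gave a difference of 0.71 and Sec23ip, a Sec23-binding protein, one of 1.16, neither past the threshold (adjusted p = 0.142 and 0.0515).

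**Figure D3:**
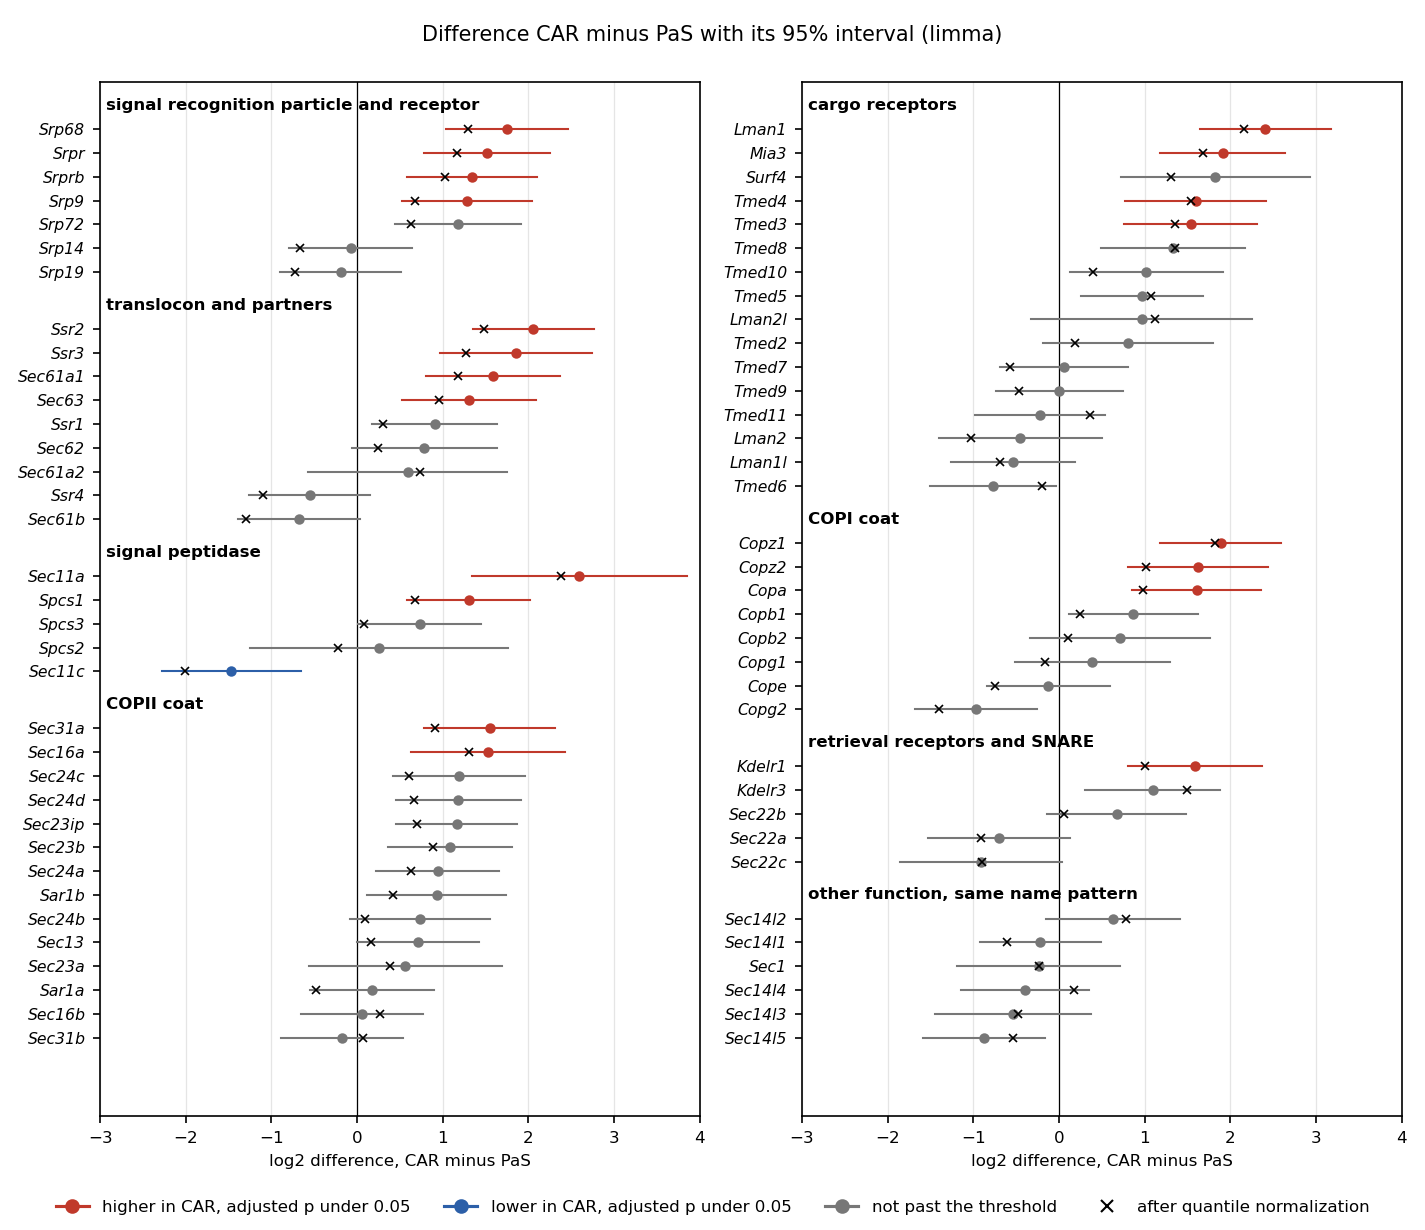
Log2 difference CAR minus PaS of each of the 70 genes (circles) with its 95% interval from limma (lines) and the value after quantile normalization (crosses), by role; colour gives the call on the deposited values. The 20 genes called higher lie between 1.28 and 2.59, Sec11c lies at -1.47, and crosses of bright genes are shifted to the left of their circles.

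Among the cargo receptors, 4 of 16 genes were higher. Lman1, a lectin that ferries glycoproteins such as clotting factors, stood at 6.20 and 6.49 against 3.94, 5.32-fold (2.41 ± 0.30, adjusted p = 0.0169), the lowest adjusted p of the 70 genes. Mia3, which encodes the procollagen export receptor TANGO1, stood at 5.93 and 5.74 against 3.93, 3.76-fold (1.91 ± 0.29, adjusted p = 0.0231). Surf4, a receptor for soluble cargo, lay just outside the threshold. It read 6.07 on CAR array 1 and 6.95 on CAR array 2 against 4.69 (1.82 ± 0.43, adjusted p = 0.0511). It passed after quantile normalization (1.31, adjusted p = 0.0240).

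None of the 3 relatives of Lman1 was called on the deposited values, and their difference from Lman1 was not tested. Lman2, a lectin of the early secretory pathway, read 4.94 and 5.59 against 5.72 (-0.45, interval -1.40 to 0.50) and was called lower after quantile normalization (-1.03, adjusted p = 0.0353). Lman1l read 3.79 and 3.62 against 4.24 (-0.53) and Lman2l 3.60 and 4.72 against 3.19 (0.97, adjusted p = 0.238).

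The Tmed genes encode p24 proteins, which load cargo such as lipid-anchored proteins into vesicles, and 2 of 10 measured members were called. Tmed4 stood at 4.95 and 5.38 against 3.57 (1.60 ± 0.32, 3.02-fold, adjusted p = 0.0380) and Tmed3 at 5.59 and 5.26 against 3.89 (1.54 ± 0.31, 2.90-fold, adjusted p = 0.0370). Tmed8 (1.33, adjusted p = 0.0555) and Tmed5 (0.97, adjusted p = 0.0757) were not past the threshold on the deposited values. After quantile normalization they were past it (adjusted p = 0.0109 and 0.0205). On the array labelled PaS they read 3.42 and 3.36, under its median of 3.77, so the sizes of their differences are uncertain. Tmed2 read 6.38 and 7.10 against 5.93 (0.81), and its other probe sets gave 0.92 and 0.91. Tmed10 gave 1.02 on its brightest probe set (7.52 and 8.08 against 6.78) and -0.05 on the other.

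For Tmed7 and Tmed9 the array labelled PaS lay between the CAR arrays. Tmed7 read 7.31 and 7.56 against 7.38, and Tmed9 4.72 and 4.95 against 4.83. Tmed6 and Tmed11 read from 1.46 to 2.70 on the 3 arrays, below each array's median. The Tmed family as measured here thus held called, uncalled and overlapping members side by side.

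The COPI coat, which carries vesicles backward from the Golgi, had 3 of 8 genes higher. Copz1 and Copz2 encode alternative zeta subunits, and both were called. Copz1 stood at 5.44 and 5.46 against 3.56, 3.70-fold (1.89 ± 0.28, adjusted p = 0.0226), and Copz2 at 7.94 and 8.38 against 6.54, 3.08-fold (1.62 ± 0.32, adjusted p = 0.0371). Copa, the alpha subunit, stood at 7.12 and 7.38 against 5.64, 3.04-fold (1.61 ± 0.30, adjusted p = 0.0324).

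Neither gamma subunit passed the test. Copg1 read 5.27 and 5.86 against 5.18 (0.39, interval -0.52 to 1.30) and -0.17 as a difference after quantile normalization. Copg2 read 4.35 and 4.27 against 5.27 (-0.97, interval -1.68 to -0.26, adjusted p = 0.0757), and was called lower after it (-1.40, adjusted p = 0.00852). The difference between these paralogs was not tested. Copb1 and Copb2, the beta and beta-prime subunits, gave 0.86 and 0.71 (adjusted p = 0.107 and 0.280), and Cope, the epsilon subunit, -0.12 (5.77 and 5.89 against 5.96).

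Of the genes that bring proteins back or fuse the vesicles, 1 of 5 was higher. Kdelr1, a receptor that returns ER-resident chaperones, stood at 6.71 and 7.06 against 5.30, 3.01-fold (1.59 ± 0.31, adjusted p = 0.0354). Its paralog Kdelr3 read 3.49 and 3.85 against 2.58 (1.09, adjusted p = 0.0722) and passed after quantile normalization (1.49, adjusted p = 0.00834). On CAR array 1 and the array labelled PaS, Kdelr3 read under the medians of 3.74 and 3.77, so the size of its difference is uncertain. The SNARE gene Sec22b read 6.01 and 6.43 against 5.54 (0.67, adjusted p = 0.202), while its relatives Sec22a (3.94 and 3.50 against 4.42) and Sec22c (3.45 and 2.80 against 4.03) read lower on both CAR arrays without passing (adjusted p = 0.193 and 0.154).

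Of the 6 genes that share only the name pattern, limma called 0, with 1 at an unadjusted p under 0.05. Their median difference was -0.32, and 5 of the 6 were negative, against 54.9% of all genes. All 6 lie among the 22 genes below the upper quartile of level, of which 12 were negative with these 6 counted in. Sec14l4 turned positive after quantile normalization (0.17). Without them the other 64 genes had a median difference of 0.93, with 50 positive and 14 negative. Among the 6, Sec14l2 had the highest difference (3.79 and 4.14 against 3.33; 0.63, adjusted p = 0.211) and Sec14l5 the lowest (2.51 and 2.39 against 3.33; -0.88, adjusted p = 0.0941).

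The CAR arrays also differed from each other over these genes. CAR array 2 lay above CAR array 1 for 52 of the 70 genes (74.3%, against 48.6% of all genes), by a median of 0.21. The share was 83.3% of the 48 genes in the upper quartile of level and 54.5% of the other 22. CAR array 2 also had the wider interquartile range over all genes (2.28 against 1.96), and its part in this shift was not tested. The number of genes at least 2-fold above the array labelled PaS was 38 for CAR array 2 alone and 27 for CAR array 1 alone. The spread was largest for Spcs2, Lman2l and Sec11a.

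The partner genes of the pathway, listed by function, leaned the same way. Of 116 measured, limma called 27 higher and 0 lower in CAR cells, which is 23.3% of them higher against 8.56% of all genes. At an unadjusted p under 0.05 there were 42 higher and 2 lower, against 3409 and 3595 of all 19938 genes. The median difference of the partner genes was 0.61, and 0.24 after quantile normalization. Of the 116, 28 were then called higher and 8 lower, against 13.2% and 14.2% of all genes. The oligosaccharyltransferase, which adds N-linked sugars beside the channel, and the Tram genes had 6 of 13 higher. Ostc, a subunit of the translocon-bound form of the enzyme, stood at 6.79 and 7.34 against 3.44, 12.3-fold (3.62 ± 0.35, adjusted p = 0.0119), above any of the 70 genes. On the array labelled PaS it read under the median of 3.77, as did Yipf5, Ctage5, Gbf1 and Trappc12, named next. Such dim values cannot be told from background, so the sizes of these folds are uncertain. Tram2, a translocation-associated protein, was 3.32-fold and Rpn2, another subunit of the enzyme, 3.17-fold higher.

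Among genes that help COPII or cycle through the compartment between ER and Golgi, 5 of 16 were higher. Ergic1 (7.20 and 7.27 against 4.69) was 5.84-fold higher, Yipf5 5.73-fold, and Ctage5, a partner of TANGO1 in collagen export, 5.38-fold (5.84 and 6.23 against 3.61). Of 9 COPI regulators 2 were higher: Gbf1, the exchange factor that activates Arf GTPases for COPI, 4.98-fold, and Arcn1, the delta subunit of the coat, which the name pattern does not catch, 3.67-fold. Tethers and Rab GTPases had 7 of 27 higher, led by the Golgi stacking gene Gorasp2 at 4.59-fold, with the tethering complex genes Trappc1 at 4.38-fold and Trappc12 at 3.81-fold. Of 15 genes of the ER membrane complex and of tail-anchor insertion 2 were higher, Emc2 at 5.10-fold and Emc7 at 4.58-fold. That is 13.3%, against 8.56% of all genes. The median difference of these 15 was 0.36, and -0.02 after quantile normalization. For the 13 SNARE genes and their regulators limma made 0 calls, with 3 higher and 1 lower at an unadjusted p under 0.05.

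**Figure D4:**
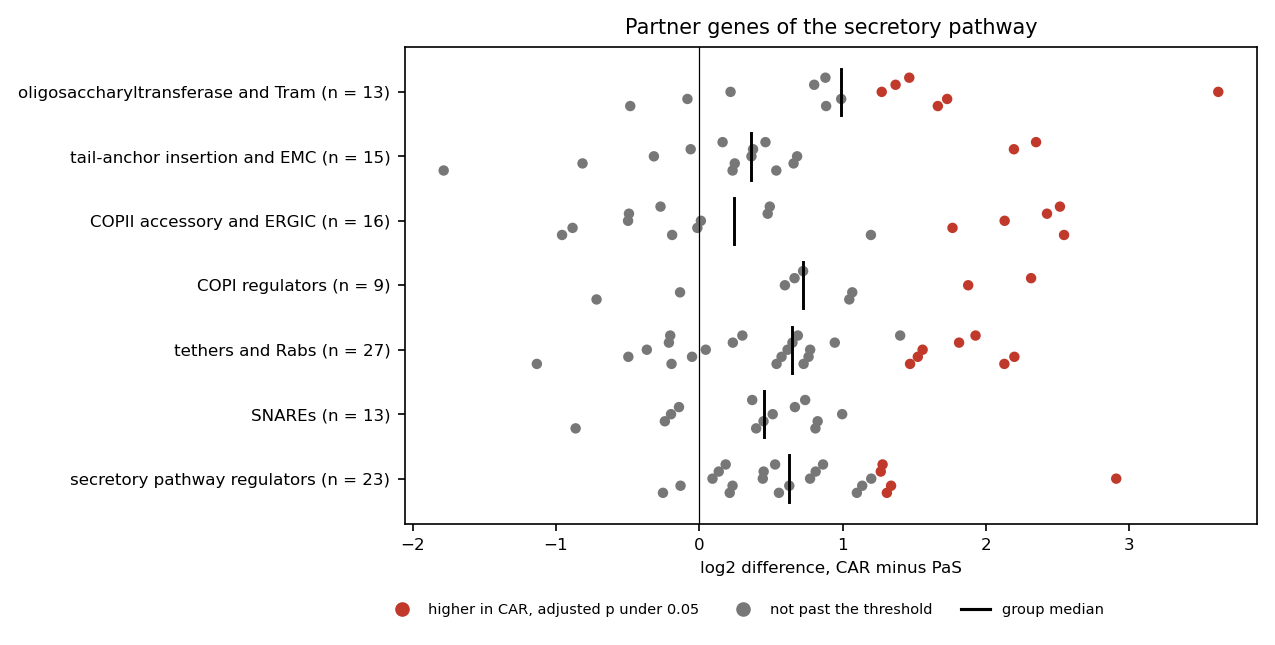
Log2 difference CAR minus PaS of the 116 partner genes (points) by functional group, with the group median (bar) and the call by colour. Group medians lie between 0.24 and 0.99, and Ostc at 3.62 and Creb3l1 at 2.91 stand farthest to the right.

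Of 23 genes listed as regulators of the secretory pathway, 5 were called higher and 0 lower. That is 21.7% higher, against 8.56% of all genes. Their median difference was 0.63, and 0.31 after quantile normalization. Creb3l1, a membrane-bound transcription factor that drives secretory genes in matrix-producing cells, stood at 6.97 and 6.88 against 4.02, 7.52-fold (2.91 ± 0.28, adjusted p = 0.0120). Its relative Creb3l2, known for inducing COPII genes in cartilage, read 5.15 and 5.65 against 4.26 (1.14, adjusted p = 0.0791). Atf6, a stress sensor of the ER that becomes a transcription factor, was 2.53-fold higher (1.34, adjusted p = 0.0407), and Creb3 2.48-fold (1.31, adjusted p = 0.0428). Xbp1, the factor that expands the ER in plasma cells, read 6.24 and 6.08 against 5.98 (0.18, interval -0.54 to 0.91). Hspa5, the chaperone BiP, read 9.23 and 9.47 against 8.15 (1.20, adjusted p = 0.0532). The levels of messenger RNA say nothing of the cleavage or splicing that activates Atf6, Creb3l1 or Xbp1.

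Atf6 and Xbp1 are known to bind promoter elements that contain the letters CCACG or CCACGT, and the promoters of the 70 genes were read for them. RefSeq windows from 250 bases before to 50 after the start site matched 59 of the 70 genes. The 6 letters CCACGT, on either strand, stood in the windows of 24 of these 59 genes (40.7%), against 11.1% of 15562 measured genes with a window, 14.0% of those in the upper quartile of level and 8.31% of all windows. The unfolded protein response element TGACGTGG, whose opposite strand contains CCACGT, stood in 6 of 59 (10.2%), against 0.912% of measured genes, 1.30% of those in the upper quartile and 0.676% of all windows: Copb1, Copb2, Kdelr3, Sec16b, Sec23a and Sec24d. The cyclic AMP response element TGACGTCA, which also holds a CG pair, stood in 1 of 59 (1.69%), against 2.72%, 3.66% and 1.79%. The ER stress response element (CCAAT and CCACG with 9 bases between), the same without its last base, and its variant (ATTGG and CCACG with 1 base between) had no match in the 59 windows, where 0.135%, 0.456% and 0.0578% of measured genes had one. The 5 letters CCACG alone stood in 38 of 59 (64.4%), against 43.0% of measured genes, 53.2% of those in the upper quartile of level and 32.8% of all windows. In all, 7 motifs were searched, chosen with the array values known.

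By call, CCACGT stood in 8 of 16 genes called higher that have a window (50%) and in 16 of 43 that were not called (37.2%), a difference that was not tested. None of the 6 holders of TGACGTGG was called. Of 28 CCACGT matches, 16 began in the last 100 bases before the start site and 6 after it. The windows shown are the 250 bases before the start site of the 4 genes with the largest called increase among those with 1 window and a match there, and of the genes with the largest difference among holders of TGACGTGG, Sec24d and Kdelr3. Sequences are from RefSeq, 5′ to 3′ on the gene's strand, with CCACGT or TGACGTGG on either strand in capitals.
Ssr3, GRCm38.p6 chr3:65392554-65392803, minus strand: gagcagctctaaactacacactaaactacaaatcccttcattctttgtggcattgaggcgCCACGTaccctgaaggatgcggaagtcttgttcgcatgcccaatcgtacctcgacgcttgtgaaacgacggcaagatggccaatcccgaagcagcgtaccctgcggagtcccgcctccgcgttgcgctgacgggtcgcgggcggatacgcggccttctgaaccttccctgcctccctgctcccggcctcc
Copz2, GRCm38.p6 chr11:96849626-96849875, plus strand: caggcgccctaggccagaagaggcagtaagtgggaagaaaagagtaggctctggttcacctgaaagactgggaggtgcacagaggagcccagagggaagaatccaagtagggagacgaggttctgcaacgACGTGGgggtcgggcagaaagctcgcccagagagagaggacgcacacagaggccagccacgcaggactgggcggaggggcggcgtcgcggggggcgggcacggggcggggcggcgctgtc
Tmed3, GRCm38.p6 chr9:89705044-89705293, minus strand: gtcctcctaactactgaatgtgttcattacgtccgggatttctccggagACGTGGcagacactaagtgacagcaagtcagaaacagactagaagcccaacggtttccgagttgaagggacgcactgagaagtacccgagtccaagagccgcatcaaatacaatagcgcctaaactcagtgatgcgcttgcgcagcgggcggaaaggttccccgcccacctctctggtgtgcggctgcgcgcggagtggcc
Srprb, GRCm38.p6 chr9:103202066-103202315, minus strand: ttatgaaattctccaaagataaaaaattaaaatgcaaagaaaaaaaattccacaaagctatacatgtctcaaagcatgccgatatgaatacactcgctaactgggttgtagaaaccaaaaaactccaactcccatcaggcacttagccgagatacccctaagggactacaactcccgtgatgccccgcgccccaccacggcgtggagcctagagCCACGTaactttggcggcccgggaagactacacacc
Sec24d, GRCm38.p6 chr3:123267246-123267495, plus strand: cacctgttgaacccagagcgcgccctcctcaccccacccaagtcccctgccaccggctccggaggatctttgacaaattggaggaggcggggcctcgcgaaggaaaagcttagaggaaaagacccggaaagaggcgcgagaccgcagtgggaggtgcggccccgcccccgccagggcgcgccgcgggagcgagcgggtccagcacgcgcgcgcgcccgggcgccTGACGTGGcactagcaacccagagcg
Kdelr3, GRCm38.p6 chr15:79516158-79516407, plus strand: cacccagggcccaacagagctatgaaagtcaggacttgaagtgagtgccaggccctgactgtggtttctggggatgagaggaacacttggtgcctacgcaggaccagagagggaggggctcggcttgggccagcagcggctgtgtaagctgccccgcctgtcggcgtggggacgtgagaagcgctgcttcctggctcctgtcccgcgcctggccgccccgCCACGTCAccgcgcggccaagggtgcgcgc
In Sec24d and Kdelr3 the element begins 26 and 30 bases before the start site. In Srprb, Copz2, Ssr3 and Tmed3 the capitals begin 36, 120, 190 and 201 bases before it. A match is a run of letters and does not show that a factor binds there.

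**Figure D5:**
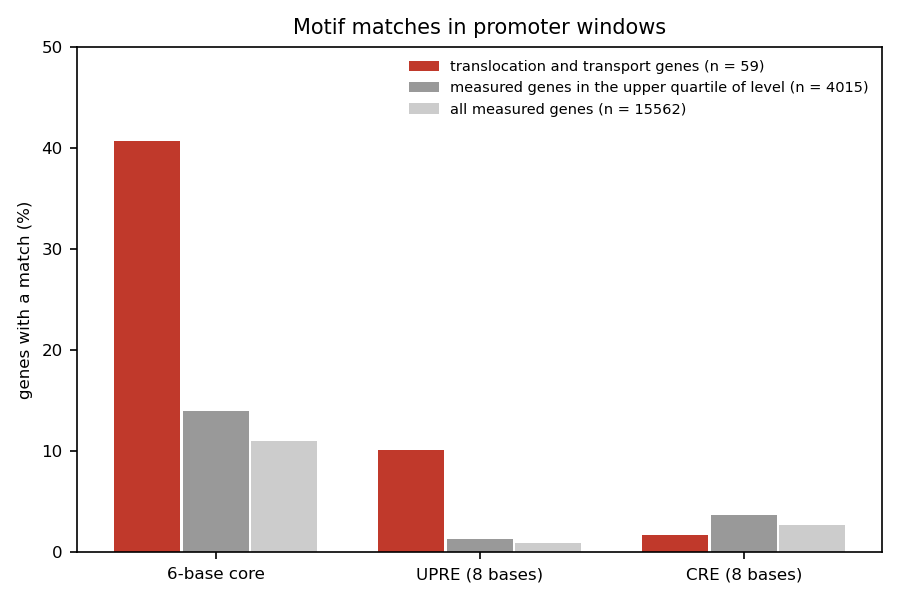
Share of genes (y axis, %) whose promoter window holds the 6-base core, the unfolded protein response element (UPRE) or the cyclic AMP response element (CRE), for the translocation and transport genes with a window (59), measured genes in the upper quartile of level (4015) and all measured genes (15562). The shares for the core are 40.7%, 14.0% and 11.1%.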

How the data were processed

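Each of 3 Affymetrix arrays (1 colour) was hybridised with amplified, biotin-labelled cDNA from sorted cells, per the labels' protocols. The authors deposited 1 linear signal intensity for each probe set and array, and the submitters' processing notes name Affymetrix Expression Console and RMA (versions not given in the sources used here). Log2 was taken with no pseudocount. Of 35556 probe sets, 21789 carried 1 symbol, 1621 several and 12146 none; 21698 matched the current gene table. Each of 19938 genes was represented by its probe set with the highest mean.

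CAR was compared with PaS by limma 3.58.1 in R 4.3.3, two-sided, no covariate, Benjamini-Hochberg over all genes, threshold 0.05. The fit has 1 residual degree of freedom and 4.20 prior ones, so all spread comes from the CAR arrays, the lone PaS array being taken to vary as they do; the number of arrays limits the precision. Whether each CAR mouse was bred or housed apart is not in the labels. SEs and 95% intervals are limma's moderated ones.

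All members may be named; arrays' values are given for called members, their paralogs and the largest differences per role, and partner genes for the 3 largest called differences per group plus Hspa5, Xbp1, Creb3l1 and Creb3l2. Members, lists and motifs were chosen with earlier results of these data known. Other markers measured were 5 erythroid (1 lower) and 10 CAR genes (10 higher). Alternatives were scaling, filters on dim genes, the mean of probe sets, a trend or robust prior, a pseudocount of 16 and leaving out each CAR array.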

Additional observations from a re-analysis of the deposited data

How the results depend on the processing

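Centring, quantile normalization, the median-level and upper-quartile filters, the mean of probe sets and the trend and robust priors gave between 15 and 28 members higher. Adding a pseudocount of 16 gave 0 members, partner genes or genes of any kind in either direction by limma, with a lowest adjusted p of 0.0539; 38 members, 46 partner genes and 5785 genes had an unadjusted p under 0.05 there, and all 70 members kept their direction. Quantile normalization gave 5 members lower and changed the count at least 2-fold apart in both CAR arrays to 14 higher and 4 lower, from 27 and 1. Leaving out a CAR array gave 27 to 38 members higher and 1 to 3 lower at least 2-fold. Over all genes quantile normalization gave 2636 higher and 2831 lower, from 1706 and 1281, and the median-level and upper-quartile filters, which test fewer genes, gave 510 and 292 lower. Partner genes lower were 8 after quantile normalization and 1 each after centring, with the median-level filter and with a robust prior, that gene being Emc9. Direction turned after quantile normalization for 8 members, none of them called in either: Copg1 (-0.17), Sar1a (-0.48), Tmed7 (-0.57), Tmed9 (-0.47), Spcs2 (-0.22), Sec31b (0.074), Tmed11 (0.37) and Sec14l4 (0.17). With an intensity trend 16 of the 21 calls held, and Sec16a, Spcs1, Srprb, Srp9 and Sec63 missed the threshold (adjusted p from 0.0505 to 0.0630). The cause was not tested. No paired analysis was possible because the labels give the groups mice of different genotypes and name no mouse that both share. The array labelled PaS cannot be left out because it is the only one of its group.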
